A study of Mus musculus with 24 samples.

Results

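The cholesterol synthesis enzymes described here are the products of 8 genes, Hmgcs1, Mvd, Idi1, Fdft1, Sqle, Lss, Cyp51 and Dhcr7. They were chosen by name as enzymes of the route to cholesterol, by a rule that holds no measured value but was written with earlier results of these data known, and all 8 were found by symbol among the 33000 genes of the count table. Levels were measured by 3'Pool-seq, a pooled RNA-seq method that sequences the 3' ends of polyadenylated transcripts, in frontal cortex of 3 wild-type (WT) and 3 homozygous GFAP-IL6 mice. All mice were 3 months old and of the C57BL/6 strain. The transgene of the GFAP-IL6 line expresses the cytokine IL6 under the promoter of Gfap, so its source is the astrocyte. Each mouse gave 4 libraries from 1 RNA sample, a 2 ng and a 1 ng library by the cDNA put into tagmentation, in set A and again in set B, for 24 libraries in all. How sets A and B differ is not given in the labels. The libraries of a mouse are technical repeats, so the mouse was the replicate (n = 3 per genotype).

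Cholesterol is built from acetyl-CoA. Hmgcs1 makes HMG-CoA, the precursor of mevalonate, and Mvd and Idi1 then supply the isoprenoid units. Fdft1 joins farnesyl pyrophosphate into squalene, Sqle oxidises squalene, Lss closes it into lanosterol, Cyp51 removes a methyl group from lanosterol, and Dhcr7 carries out a last reduction to cholesterol. These genes are classic targets of the transcription factor SREBP-2, which is activated when membrane sterol is low. The brain makes its own cholesterol, with oligodendrocytes and astrocytes as major producers. In whole tissue, fewer cells of a type and less RNA per cell cannot be told apart.

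None of the 8 genes was called different between GFAP-IL6 and WT mice when the 4 libraries of each mouse were summed (edgeR's quasi-likelihood test, Benjamini-Hochberg adjusted p under 0.05). In the same comparison 1.8% of the 14621 genes tested were called, 255 higher (1.74%) and 8 lower (0.0547%) in GFAP-IL6 mice, and 1.23% were called with an absolute log2 fold change above 1. Over all genes 1279 had an unadjusted p under 0.05, none of them one of the 8 enzymes. DESeq2 also called 0 of the 8, and limma-voom, in which Idi1 was not tested, called 0 of the others. The fitted log2 fold changes of 7 of the 8 were below 0, against 51.9% of all genes tested, with a median of -0.09 against -0.01 over all genes, and the sign of Fdft1 turned on library totals alone and that of Lss after down-sampling. The 95% interval of the fold change lay within 1.5-fold either way for 7 of the 8, every one but Idi1, against 66% of all genes tested. Levels are given as CPM, which relates the summed counts of a gene to the TMM-corrected total of its mouse.

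Hmgcs1 (ENSMUSG00000093930.1), the enzyme at the head of the route, had the highest level of the 8, also per length. It stood at 239.5, 261.4 and 249.0 CPM in WT mice 1, 2 and 3 and at 229.5, 212.2 and 229.8 CPM in GFAP-IL6 mice 1, 2 and 3. Each GFAP-IL6 mouse lay below each WT mouse, a pattern that 5.94% of all genes tested showed in this direction and 8.43% in the other. The means were 249.99 ± 10.96 CPM in WT and 223.8 ± 10.1 CPM in GFAP-IL6 mice (SD, n = 3 each), a difference of -10.5%. The log2 fold change was -0.16 (SE 0.08, 95% interval -0.33 to 0.01, adjusted p = 0.615), and an exact permutation test gave a two-sided p of 0.1, the smallest that 3 against 3 mice can give. By p-value Hmgcs1 ranked 1588 of the 14621 genes.

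Mvd and Idi1 act in the isoprenoid stretch of the route. Mvd (ENSMUSG00000006517.4), the decarboxylase of mevalonate pyrophosphate, stood at 26.8, 29.0 and 31.3 CPM in the WT mice and at 28.0, 24.8 and 23.2 CPM in the GFAP-IL6 mice. The groups overlapped through GFAP-IL6 mouse 1, which lay above WT mouse 1. Its log2 fold change was the lowest of the 8, at -0.20 (SE 0.11, 95% interval -0.44 to 0.04, adjusted p = 0.687). Idi1 (ENSMUSG00000058258.12), the isomerase that makes dimethylallyl pyrophosphate, was barely sampled, with 7 to 32 counts per mouse, and 3 of its 24 libraries held no count. Its levels were 0.364, 0.831 and 1.05 CPM in the WT mice and 0.949, 0.863 and 0.829 CPM in the GFAP-IL6 mice, so that WT mice gave both the lowest and the highest value. The log2 fold change of 0.32 had a 95% interval from -0.71 to 1.35 (adjusted p = 0.925), and a 1.5-fold change in either direction lies inside it, so such a change was not detectable for Idi1 at this depth.

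The squalene and lanosterol steps had estimates close to 0. Fdft1 (ENSMUSG00000021273.9), squalene synthase, stood at 67.1, 68.0 and 65.3 CPM in the WT mice and at 64.0, 67.4 and 66.6 CPM in the GFAP-IL6 mice. The groups lay over each other, with a log2 fold change of -0.02 (SE 0.08, 95% interval -0.20 to 0.16, adjusted p = 0.981). Sqle (ENSMUSG00000022351.12), squalene epoxidase, stood at 69.7, 78.7 and 75.1 CPM in the WT mice and at 75.6, 68.7 and 67.1 CPM in the GFAP-IL6 mice. GFAP-IL6 mouse 1 was above WT mice 1 and 3, and the log2 fold change was -0.08 (SE 0.09, adjusted p = 0.885). Lss (ENSMUSG00000033105.10), lanosterol synthase, was a low gene at 6.40, 6.04 and 5.77 CPM in the WT mice and 5.06, 6.23 and 6.22 CPM in the GFAP-IL6 mice. GFAP-IL6 mouse 1 was the lowest of the 6 and the other GFAP-IL6 mice lay inside the WT range. The log2 fold change of Lss was -0.04 with a wider error (SE 0.18, 95% interval -0.43 to 0.34, adjusted p = 0.979).

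After lanosterol, Cyp51 (ENSMUSG00000001467.5) stood at 59.4, 60.4 and 68.3 CPM in the WT mice and at 56.6, 56.8 and 62.5 CPM in the GFAP-IL6 mice. Its groups overlapped through GFAP-IL6 mouse 3, with a log2 fold change of -0.09 (SE 0.09, adjusted p = 0.882). Dhcr7 (ENSMUSG00000058454.12), the reductase of the last step, stood at 24.9, 28.5 and 29.4 CPM in the WT mice and at 22.7, 22.7 and 27.3 CPM in the GFAP-IL6 mice. GFAP-IL6 mouse 3 again lay within the WT range, and the log2 fold change was -0.17 (SE 0.12, 95% interval -0.42 to 0.08, adjusted p = 0.773). Added together, the 8 genes took 494, 533 and 525 CPM in the WT mice and 482, 460 and 483 CPM in the GFAP-IL6 mice. The sums did not overlap and differed by -8.17% (517 ± 20.4 against 475 ± 13.4 CPM, SD, n = 3 each). Hmgcs1 made up the largest share of them, with means of 249.99 and 223.8 CPM. Of the 8 genes 7 had fitted log2 fold changes below 0, so the difference in the sums was not that of Hmgcs1 alone. Of all single genes tested 5.94% lay lower without overlap, and no such share was taken for sums of genes. The highest value of each of the 8 genes came from a WT mouse, 4 from WT mouse 3, 3 from WT mouse 2 and 1 from WT mouse 1. The lowest came from GFAP-IL6 mice for 7 genes, 4 of them from GFAP-IL6 mouse 1, and from WT mouse 1 for Idi1. Such counts were not made over all genes, so no share stands beside them. The 8 values of a mouse also come from the same libraries and total count.

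**Figure D1:**
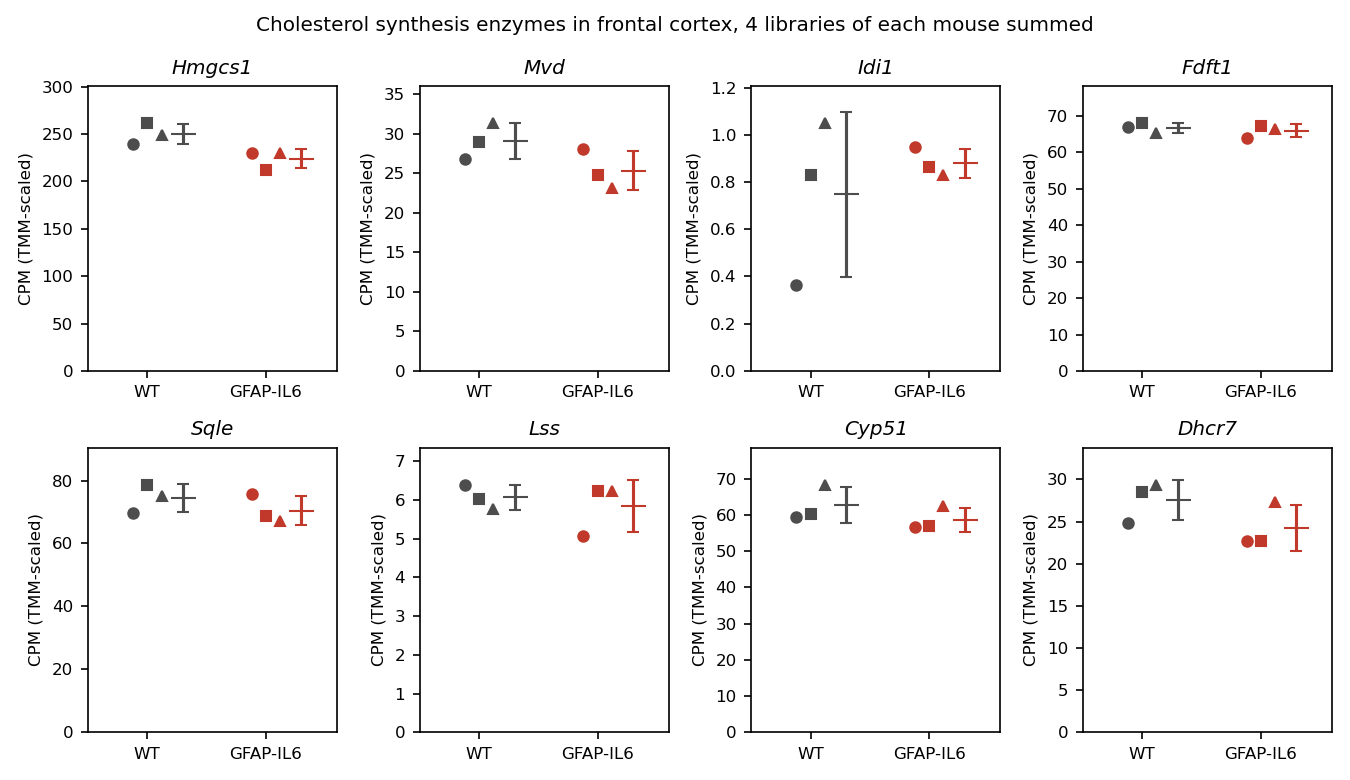
CPM (TMM-scaled, axis from 0) of the 8 enzymes in WT (grey) and GFAP-IL6 (red) mice, with circles, squares and triangles for mice 1, 2 and 3 of each genotype and the bar for mean ± SD (n = 3). The WT and GFAP-IL6 points of Hmgcs1 do not overlap (239.5 to 261.4 against 212.2 to 229.8 CPM), and those of the other 7 genes do.

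The promoters of the 3 genes with the lowest log2 fold changes are printed with matches to the letters searched for the site of the shared regulator. RefSeq windows on GRCm38.p6, of 250 bases before to 50 after a start, were at hand for 6 of the 8 genes, Hmgcs1, Mvd, Idi1, Lss, Cyp51 and Dhcr7. The 3 motifs named next were searched on both strands, with none overlapping another in the stretches shown. The sterol regulatory element, the site SREBP binds, was searched as TCACNCCAC, and these letters occur in 1.24% of the 32851 windows. Of the 6 genes only Hmgcs1 held them, 137 bases before its start, and 0 of 12 other sterol synthesis genes with a window did. The search finds these exact letters only, so a gene without a match is not shown to lack a site. The CCAAT box, bound by NF-Y, occurs in 37.4% of all windows and in 6 of 6, and the GC box, GGGCGG, bound by Sp1, in 35.7% and in 6 of 6. Both are cofactor sites known from sterol-regulated promoters. Each line gives 150 bases upstream of the outermost annotated start, 5' to 3' on the strand of the gene, with motif matches in capitals. They lie at chr13:119690201-119690350 on the plus strand for Hmgcs1, at chr8:122443423-122443572 on the minus strand for Mvd and at chr7:143822995-143823144 on the plus strand for Dhcr7.
Hmgcs1: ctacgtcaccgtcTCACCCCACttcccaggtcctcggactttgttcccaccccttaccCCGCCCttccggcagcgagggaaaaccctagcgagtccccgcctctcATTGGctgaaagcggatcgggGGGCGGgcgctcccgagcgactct
Mvd: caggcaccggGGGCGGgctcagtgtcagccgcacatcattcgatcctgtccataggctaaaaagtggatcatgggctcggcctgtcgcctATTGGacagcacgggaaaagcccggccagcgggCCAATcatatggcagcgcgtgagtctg
Dhcr7: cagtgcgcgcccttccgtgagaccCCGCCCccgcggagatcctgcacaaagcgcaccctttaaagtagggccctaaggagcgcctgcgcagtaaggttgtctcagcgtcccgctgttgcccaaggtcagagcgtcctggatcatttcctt
Mvd showed a pair of CCAAT boxes in this stretch, at 60 and 27 bases before the start, Hmgcs1 showed 1, and Dhcr7 showed only a GC box, its CCAAT match lying elsewhere in the RefSeq window. A match is a run of letters, and binding was not measured.

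Other enzymes of the pathway were read next. Of 18 other genes of sterol synthesis 17 were tested and none was called, with 12 of 17 below 0 and a median log2 fold change of -0.06. Msmo1, a sterol demethylase subunit, stood at 188.2, 216.4 and 210.6 CPM in the WT mice and 199.0, 200.8 and 190.8 CPM in the GFAP-IL6 mice (log2 fold change -0.06, SE 0.08, adjusted p = 0.918). Fdps, which makes farnesyl pyrophosphate, had one of 0.16 (SE 0.28, adjusted p = 0.936) at 1.70 to 3.22 CPM, and 245 nt of its 3' end match the pseudogene Gm3571 at 99.2% identity, so its count is uncertain. Mvk and Hsd17b7 were named after their values were seen, with log2 fold changes of -0.18 and -0.16 (adjusted p = 0.737 and 0.778). They were the 2 genes of this list in which each GFAP-IL6 mouse lay below each WT mouse. The same held for 5.94% of all genes tested.

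The regulators of the pathway did not pass the test either. All 10 genes of SREBP control were tested and 0 were called, with 7 below 0 and a median log2 fold change of -0.04. Srebf2, which encodes SREBP-2, stood at 30.0, 34.3 and 36.3 CPM in the WT mice and 29.9, 33.2 and 37.0 CPM in the GFAP-IL6 mice, so that the groups covered almost the same range. Its log2 fold change was 0.01 (SE 0.11, adjusted p = 0.995). Srebf1, which encodes SREBP-1, was at -0.13 (SE 0.16, adjusted p = 0.904). In Srebf1, 109 nt of the 3' end match the overlapping gene Rai1 in full, so its count is uncertain. Insig1, which retains SREBP in the endoplasmic reticulum and is itself a target, was at -0.20 (SE 0.14, adjusted p = 0.789), and its highest value was the 40.7 CPM of WT mouse 3. Mbtps2, a protease that releases SREBP from the membrane, named after its values were seen, had the lowest value of this list, a log2 fold change of -0.32 (SE 0.14, 95% interval -0.62 to -0.01, unadjusted p = 0.0415, adjusted p = 0.538). It was the 1 gene of the list in which each GFAP-IL6 mouse lay below each WT mouse, at 11.6 to 13.2 against 13.3 to 18.1 CPM. The same held for 5.94% of all genes tested. In Mbtps2, 128 nt of the 3' end match the overlapping gene Yy2 in full, so its count is uncertain.

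Among 18 targets of SREBP outside sterol synthesis 0 of 18 were called, 9 below 0 and 9 above, with a median of 0.02. Scd2, the main stearoyl-CoA desaturase of brain, had a log2 fold change of -0.11 (SE 0.09, adjusted p = 0.829).

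**Figure D2:**
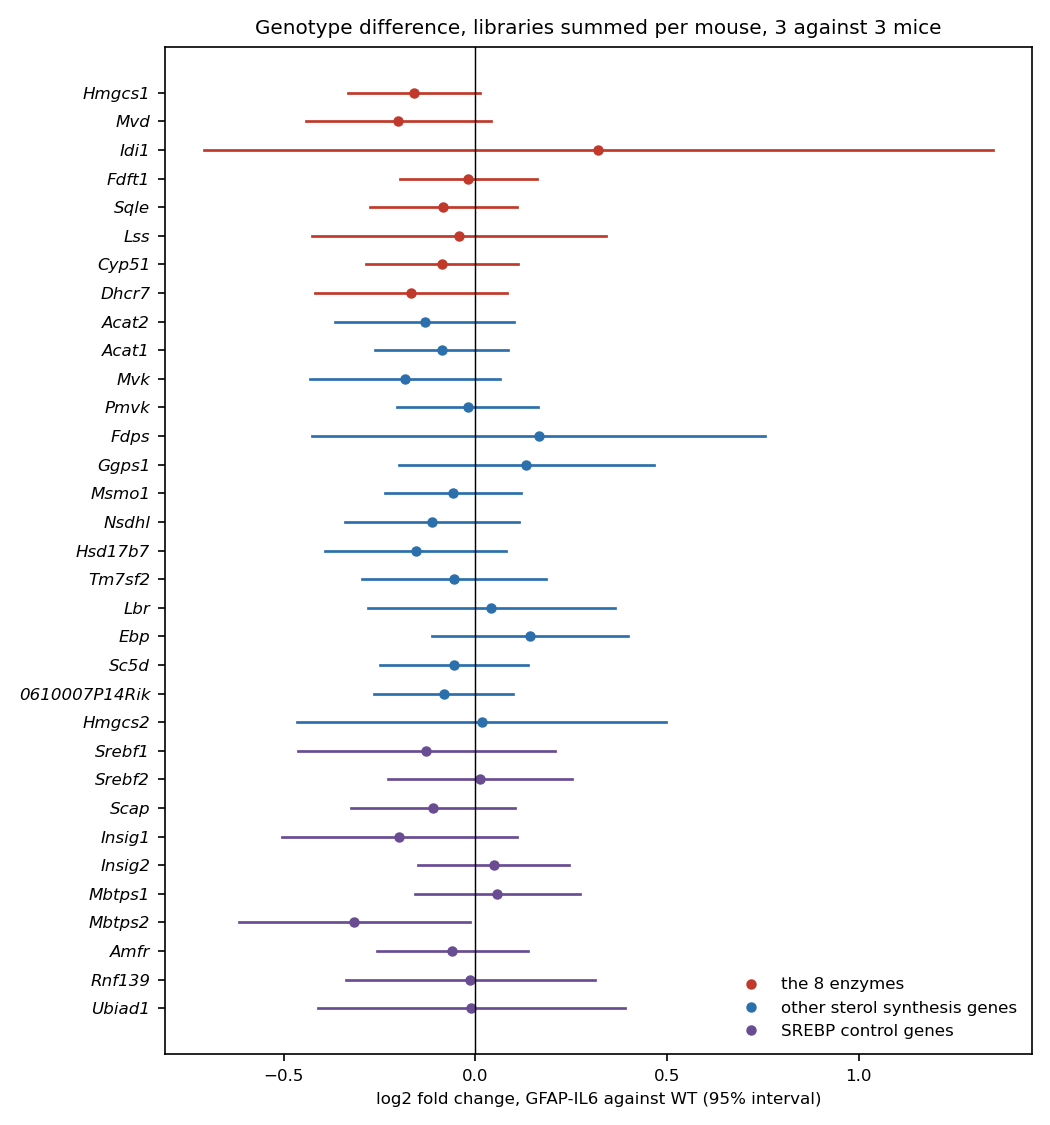
Fitted log2 fold change of GFAP-IL6 against WT (points) with 95% intervals (lines) for the 8 enzymes, 15 of the 17 other sterol synthesis genes tested and the 10 SREBP control genes, 3 against 3 mice. The intervals of the 8 enzymes all cross 0, and the widest is that of Idi1, from -0.71 to 1.35.

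Calls were found among genes that move, store or turn over cholesterol. Of 24 such genes 4 were called, each of them higher in GFAP-IL6 mice, where 1.74% of all genes tested were called higher. The median log2 fold change over the list was 0.17, against -0.01 over all genes. Tspo, a cholesterol-binding protein of the outer mitochondrial membrane and a marker of reactive glia, stood at 19.7, 23.9 and 20.3 CPM in the WT mice and 49.6, 53.4 and 63.3 CPM in the GFAP-IL6 mice, a log2 fold change of 1.38 (SE 0.12, adjusted p = 5.2e-06). Ch25h, which makes an oxysterol in activated microglia and macrophages, rose from 0.988, 0.720 and 0.787 CPM to 2.85, 3.40 and 6.84 CPM (log2 fold change 2.44, SE 0.38, adjusted p = 0.00173). The groups did not overlap for either gene, as held for 8.43% of all genes tested in this direction.

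Npc2, which exports cholesterol from lysosomes, rose from 133.4 ± 10.4 to 175.5 ± 6.94 CPM (SD, n = 3 each, log2 fold change 0.40, SE 0.09, adjusted p = 0.0228). Apod, a lipocalin made by glia, rose from 253.6 ± 43.1 to 406 ± 115 CPM (log2 fold change 0.68, SE 0.16, adjusted p = 0.0412). The call of Apod was lost without WT mouse 1 or 3, without GFAP-IL6 mouse 2 or 3, in DESeq2 (adjusted p = 0.387) and with at least 10 counts in every library. The call of Npc2 was lost without WT mouse 1, GFAP-IL6 mouse 2 or GFAP-IL6 mouse 3. Apoe, the main lipoprotein of brain, stood at 4983 ± 217 against 6178 ± 541 CPM (log2 fold change 0.31, SE 0.09) and was not called at an adjusted p of 0.129. It was called in DESeq2 (adjusted p = 0.0259), in limma-voom (adjusted p = 1.1e-09) and without GFAP-IL6 mouse 1 (edgeR, adjusted p = 0.0375). The limma-voom fit takes the 24 libraries as columns, with a shared within-mouse correlation of 0.23 for all genes. Its p therefore rests in part on the spread between technical repeats, not on 3 against 3 mice alone. Abca1, the efflux pump, had a log2 fold change of 0.37 (SE 0.18, adjusted p = 0.585), and Cyp46a1, which hydroxylates cholesterol in neurons for export, of -0.08 (SE 0.09, adjusted p = 0.890).

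The reads counted came to between 1524165 and 12256374 per library and between 7852743 and 37582644 per mouse, with WT mouse 3 the shallowest. The genotype labels were met by Il6, the gene of the cytokine the transgene expresses, and by Gfap, the gene of its promoter. Il6 reads of the transgene and of the native gene were not told apart. Il6 was at 0.260, 0.166 and 0 CPM in the WT mice and 3.16, 1.58 and 4.22 CPM in the GFAP-IL6 mice, and Gfap at 16.0 to 23.5 against 80.8 to 146.3 CPM. Of 8 microglial markers 7 were called higher (summed levels of 388 to 436 CPM in WT and 635 to 812 CPM in GFAP-IL6 mice), of 8 astrocyte markers 2, Gfap and Atp1b2 (3102 to 3197 and 3524 to 3741 CPM), and of 5 endothelial markers 2. Over all genes tested 1.74% were called higher. None of 9 oligodendrocyte, 4 precursor or 8 neuronal markers was called. Their summed levels were 5928 to 9149 CPM in WT and 5896 to 8810 CPM in GFAP-IL6 mice for oligodendrocytes, and 6666 to 7354 and 6245 to 6936 CPM for neurons. WT mouse 3 stood apart through choroid plexus, with Ttr at 4035 CPM against 74.5 to 742 CPM in the other mice. WT mouse 2, which had the highest sum of the 8 enzymes, was also highest in the 5 striatal markers listed, at a summed 244.0 CPM against 126.6 to 167.0 CPM in the other mice, with Rgs9 at 19.3 against 4.59 to 8.34 CPM and Drd1 at 14.9 against 6.56 to 8.71 CPM. The part of these cell type markers in the levels of the 8 enzymes, or in those of the 4 transport and turnover genes called, was not tested. Without WT mouse 3 edgeR called 0 of the 8 enzymes and 246 genes in all, and without WT mouse 2 again 0 of the 8 and 182 genes in all.

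The genotype difference was next read in each set of libraries, which repeats the comparison in the same 6 mice. Of the 7 genes that passed the filter on low counts in a set (Idi1 did not) none was called in any set, where 1.03% of genes were called with 2 ng in set A, 1.08% with 2 ng in set B, 1.1% with 1 ng in set A and 1.08% with 1 ng in set B. Hmgcs1 was below 0 in 4 of 4 sets, with log2 fold changes from -0.17 to -0.13 and errors of 0.09 to 0.10. Dhcr7 was also below 0 in 4 of 4 sets, from -0.22 to -0.07 with errors of 0.18 to 0.20. Mvd ranged from -0.36 with 1 ng in set B to 0.10 with 1 ng in set A, Fdft1 from -0.14 to 0.10, Sqle from -0.16 to 0.0039, Lss from -0.28 to 0.43 and Cyp51 from -0.22 to 0.06, so that for these genes the sign changed with the set. The sets share their RNA, so 4 of 4 counts repeats of the same mice.

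**Figure D3:**
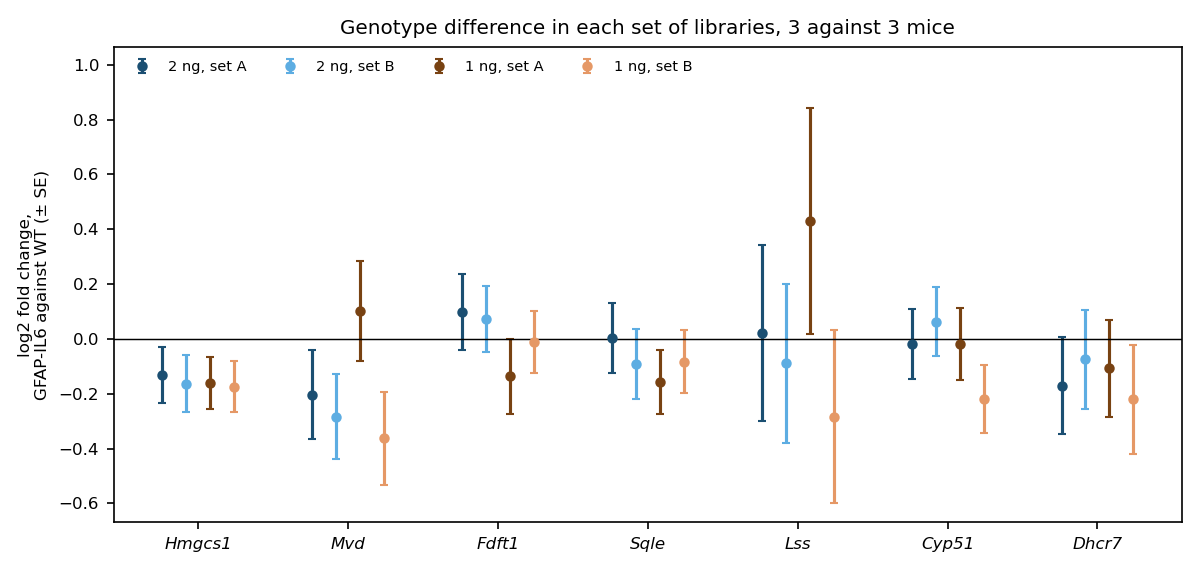
Log2 fold change of GFAP-IL6 against WT (points) ± SE (bars) in each of the 4 sets of libraries, 3 against 3 mice per set, for the 7 enzymes tested there. Hmgcs1 sits between -0.17 and -0.13 in the 4 sets, whereas Lss spreads from -0.28 to 0.43 with 1 ng of cDNA in sets B and A.

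The amount of cDNA in tagmentation, in contrast, gave calls among these genes. With 1 ng against 2 ng, 12.3% of 13750 genes were called, and 2 of the 7 enzymes tested were among them. Fdft1 was higher with 1 ng in 6 of 6 mice, at 71.5 ± 3.26 against 59.8 ± 2.36 CPM (SD, n = 6 mice), a log2 fold change of 0.26 (SE 0.06, adjusted p = 0.00459). Lss was lower with 1 ng in 6 of 6 mice, at 4.92 ± 0.948 against 7.41 ± 0.617 CPM (SD, n = 6 mice), a log2 fold change of -0.53 (SE 0.15, adjusted p = 0.0247). The call of Fdft1 was lost without WT mouse 2 (adjusted p = 0.0568), and that of Lss without WT mouse 1, WT mouse 3, GFAP-IL6 mouse 1 or GFAP-IL6 mouse 2 (adjusted p = 0.0555 to 0.0915). The refits without a mouse did not use the mouse as a block. With the mouse as a block, 31.2% of genes were called. Fdft1 (adjusted p = 4.9e-08) and Lss (adjusted p = 0.00237) stayed called, and Mvd and Cyp51 were called too. That fit takes its error largely from all genes together. Mvd was lower with 1 ng in 5 of 6 mice (log2 fold change -0.24, adjusted p = 0.00194 with the block and 0.109 without it), and Cyp51 was higher in 6 of 6 mice (0.12, adjusted p = 0.0422 with the block and 0.235 without it). Hmgcs1, Sqle and Dhcr7 were not called in either fit. Idi1, not tested there, was higher with 1 ng in 6 of 6 mice, at 0.932 ± 0.245 against 0.660 ± 0.257 CPM.

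Between sets A and B 6.98% of 13934 genes were called, and Fdft1 was the 1 enzyme called. It was higher in set B in 6 of 6 mice, at 72.5 ± 3.48 against 59.5 ± 5.33 CPM (SD, n = 6 mice), a log2 fold change of 0.27 (SE 0.07, adjusted p = 0.0160). The call was lost without WT mouse 2, GFAP-IL6 mouse 1 or GFAP-IL6 mouse 2 (adjusted p = 0.0603 to 0.0796). Its mean was lowest with 2 ng in set A, at 51.6 ± 5.24 CPM, against 69.9 ± 4.68 CPM with 2 ng in set B, 66.6 ± 9.48 CPM with 1 ng in set A and 73.4 ± 3.57 CPM with 1 ng in set B (SD, n = 6 mice, scaled within each set). Lss was also higher in set B in 6 of 6 mice but not called (log2 fold change 0.42, SE 0.16, adjusted p = 0.124). With the mouse as a block 21.7% of genes were called, Hmgcs1 among them at -0.10 (SE 0.03, adjusted p = 0.00509), lower in set B in 5 of 6 mice. Fdft1 stayed called with the block (adjusted p = 8.6e-05), which the refits without a mouse did not use. The fit with the block again takes its error largely from all genes together. No enzyme's genotype difference was called as dependent on the cDNA amount or the set. The tests of these interactions called 0 genes with edgeR (93 and 239 genes at an unadjusted p under 0.05, none of them an enzyme) and again 0 genes with the mouse as a block (551 and 606 genes at an unadjusted p under 0.05), and DESeq2 was not run on them.

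**Figure D4:**
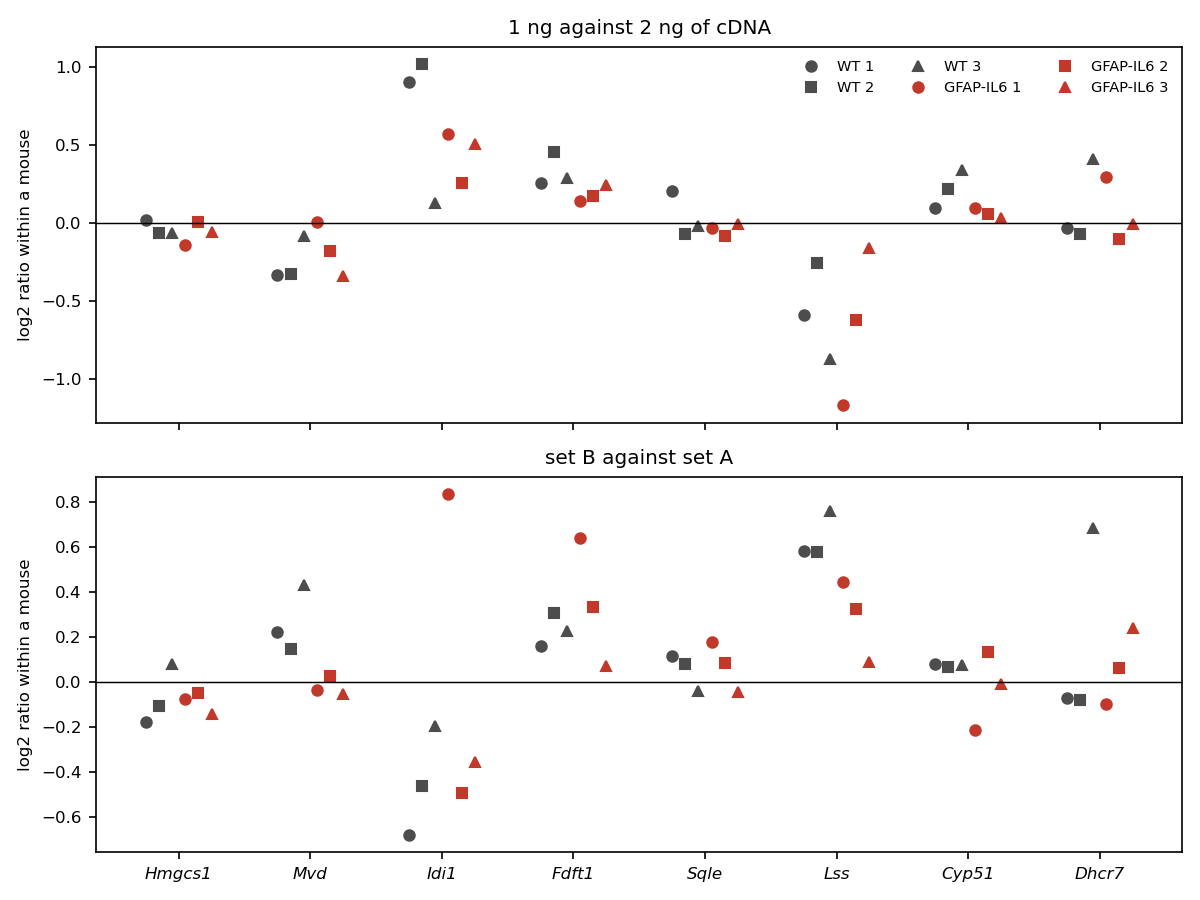
Log2 ratio of CPM within each mouse, 1 ng against 2 ng of cDNA (top) and set B against set A (bottom), for the 8 enzymes in WT (grey) and GFAP-IL6 (red) mice, with circles, squares and triangles for mice 1, 2 and 3. All 6 points of Fdft1 lie above 0 in both panels, and those of Lss lie below 0 in the top panel and above 0 in the bottom one.

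Fdft1 varied little between mice and much between libraries. Its coefficient of variation was 2.41% between mice of a genotype after summing, below the 3.25% of counting error. It was 17.6% between the libraries of a mouse, where counting error alone gives 6.85%. The libraries of a mouse differ in cDNA amount and set, so the 17.6% holds those shifts as well. Lss varied by 39.1% between libraries of a mouse (counting 24.4%) and Idi1 by 63.9% (counting 64.8%), while Hmgcs1, at 7.57%, and Sqle, at 6.77%, were the most even. The 3' end of Fdft1 overlaps that of another gene. On mm10 it lies at chr14:63145150-63179578 on the minus strand with 10 exons, and 774 nt of its last exon, all within the 3' UTR stretch of 1603 nt, are shared with Ctsb on the opposite strand. Ctsb, a lysosomal protease, stood at 815 CPM in WT and 902 CPM in GFAP-IL6 mice on average, and with 1 ng its log2 fold change was 0.15 (SE 0.05, adjusted p = 0.0491). The strand setting of the counting is not given in the sources used here, and without strand the reads of such a pair cannot be told apart.

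Other members carry overlaps of the same kind, all on the opposite strand. Cyp51 (chr5:4081145-4104746, minus strand) shares 166 nt of its last exon with Akap9, a scaffold protein gene. Lss (chr10:76531588-76557138, plus strand, 22 exons) has its last exon of 2543 nt inside the antisense gene 4930483K19Rik, and Mvd (chr8:122433601-122443422, minus strand) lies whole inside Gm20388, and both of these partners are listed at 0 CPM in each mouse group. Hmgcs1 (chr13:119690379-119708260, plus strand, 11 exons), Sqle (chr15:59315077-59331192, plus strand), Dhcr7 (chr7:143823145-143848410, plus strand) and Idi1 (chr13:8885501-8892451, plus strand) share no base of their last exon with another gene. No processed copy at another locus matched the last 300 nt of any of the 8 genes over 100 nt at 97% identity or more, although a pseudogene of Idi1, Gm13502, matches 684 nt further upstream at 100% identity and one of Fdft1, Gm6781, matches 1249 nt at 97.4%.

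Set side by side per kb of deposited gene length, the levels of the 8 genes spanned a wide range. Hmgcs1 led at 73.3 ± 5.31 CPM per kb (SD, n = 6 mice), followed by Sqle at 26.3 ± 1.67 and Fdft1 at 23.2 ± 0.526 CPM per kb, whose mice did not overlap on this scale. Mvd at 15.4 ± 1.67 and Cyp51 at 15.4 ± 1.11 CPM per kb could not be ordered. Dhcr7 followed at 7.99 ± 0.898, Lss at 1.28 ± 0.104 and Idi1 at 0.269 ± 0.078 CPM per kb. A 3' read is counted about once per transcript whatever its length, so on the CPM scale itself Cyp51 (60.7 ± 4.36 CPM) lay well above Mvd (27.2 ± 2.94 CPM). On that scale the mice of Sqle (67.1 to 78.7 CPM) and Fdft1 (64.0 to 68.0 CPM) overlapped, as did those of Mvd and Dhcr7.

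The 8 genes did not move as a block from mouse to mouse. Over the 28 pairs of genes the Pearson correlation of log2 CPM across the 6 mice had a median of 0.22 and ran from -0.57 for Sqle with Lss to 0.88 for Cyp51 with Dhcr7, with 19 pairs above 0. These are descriptions over 6 mice, and within a mouse the 8 values come from the same libraries and total count. Once the mean of each genotype was removed the median was 0.07. The genes most like the mean of the 8 over the 6 mice, among 8969 genes with at least 10 CPM, were Fut9 (r = 0.999), Rusc2 (0.994), Klhl2 (0.991), Epha4 (0.988) and Man1a (0.985), while Msmo1 ranked 279 (r = 0.844), Mvk 1194 (r = 0.644) and Insig1 1639 (r = 0.562). That mean leaned on Idi1. Without Idi1, an alternative added once the data had been seen, the closest were Gclc (r = 0.986), Arsb (0.980), Uba1 (0.976), Fnbp1 (0.973) and Arfgef2 (0.972), with 0 of the 5 genes shared, while Mvk ranked 180 (r = 0.864), Msmo1 1208 (r = 0.622) and Insig1 1707 (r = 0.532).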

How the data were processed

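Frontal cortex RNA of 6 mice was sequenced as 24 3'Pool-seq libraries. The authors trimmed polyA stretches, used STAR 2.4 with mm10 for alignment and featureCounts 1.6.3 with GENCODE vM6 for counting, and they deposited raw read counts per gene and library, without normalization. The submitters' processing notes list hg19, STAR 2.4, featureCounts and Subread. The count table holds 33000 genes and 0 columns of other samples. The strand setting is not given in the sources used here.

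The counts of each mouse were summed, over all 4 libraries for genotype and over 2 for cDNA amount and set. Genes that passed filterByExpr were tested with edgeR 4.0.16 in R 4.3.3 (TMM, quasi-likelihood test, Benjamini-Hochberg adjustment over all genes tested, called at an adjusted p under 0.05). Standard errors and 95% intervals come from that fit. DESeq2 1.42.0 and limma 3.58.1 (voom, with the mouse as random effect) were alternatives, beside other normalizations, filters and depths, a replicate block and leaving out each mouse. A mouse's libraries share 1 animal and so pair the columns compared between cDNA amounts and sets. The labels give no pairing of WT with GFAP-IL6 mice by number. Deviations of same-numbered mice correlated at -0.05, -0.04 and -0.06, and those of other pairs at -0.05 to 0.10. With 3 mice per genotype these values cannot exclude a pairing. Between genotypes, p-values of edgeR, DESeq2 and the permutation tests measure the spread between these mice, and limma-voom also draws on that between libraries. edgeR, DESeq2 and limma share information on spread across genes, so the error of a gene is not set by its own mice alone. For cDNA amount and set, the fits with the mouse as a block compare libraries within mice but take their error largely from all genes together. Their p-values therefore do not measure the spread of a gene's own differences within mice alone. The shares of genes called with the block, and the enzymes called only with it (Mvd, Cyp51 and Hmgcs1), carry this limit. The fits without the block leave the pairing out and take the 12 columns as independent. Single genes had exact permutation tests, two-sided. The fits were tested on simulated data.

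The 8 genes and the lists were chosen with earlier results of these data known. Named were the 8 enzymes, 9 pathway genes and any other list gene called, at most 5 a list, Gfap and Il6, and the 5 genes most like the mean of the 8. Values of some other single genes are not reported here. Positions come from GENCODE vM21 (mm10), promoters from RefSeq (GRCm38.p6), and 3' end copies from minimap2 2.31-r1302. PCR reads carried no molecular identifiers, so the counting errors given cover counting only.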

Additional observations from a re-analysis of the deposited data

Results flagged for a closer look

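The within-mouse ratios of the 8 enzymes were checked for a mouse far from the other 5, in 16 groups of 6 mice, where chance marks about 1 group in 20. WT mouse 1 stood apart in the ratio of 1 ng to 2 ng of Sqle, at a log2 ratio of 0.20 against -0.08 to -0.01 in the other mice. GFAP-IL6 mouse 1 stood apart in the ratio of set B to set A of Idi1, at 0.83 against -0.68 to -0.19, on a gene with 7 to 32 counts per mouse.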

How the results depend on the processing

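The count of enzymes called between genotypes stayed at 0 in the summed libraries and in each set under each alternative run. Over 108 refits of their log2 fold changes the sign turned in 5, and the lowest adjusted p was 0.0667, for Hmgcs1 in limma-voom. Fdft1 was 0.0125 on library totals alone, and Lss 0.0665 after down-sampling to the smallest total. The number of genes called, 263, was 462 without a filter, 81 with at least 10 counts in every library and 528 in limma-voom, 180 with an absolute log2 fold change above 1, and 146 (without GFAP-IL6 mouse 3) to 321 (without GFAP-IL6 mouse 1) leaving out each mouse, with 0 enzymes each time. Within the sets, the 125 and 132 genes called with 2 ng in sets A and B became 78 and 88 in DESeq2 and 199 and 200 without a filter, the 132 became 84 with the replicate block, and the 136 and 140 called with 1 ng became 214 and 228 without a filter.

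Leaving out each mouse, the log2 fold changes ranged from -0.0335 to 0.00040 for Fdft1, -0.0920 to 0.0287 for Lss, -0.0748 to 0.55 for Idi1 and -0.0742 to 0.0756 for Srebf2. Between cDNA amounts, where 2 enzymes were called, 1 to 2 were called leaving out each mouse. Sqle ranged from -0.0413 to 0.0160 and was 0.0038 without a filter, and Dhcr7 ranged from -0.0071 to 0.0822. Between sets 0 to 1 enzymes were called, among 576 to 1087 genes. Cyp51 ranged from -0.00025 to 0.0662.

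With same-numbered mice as a replicate block, a pairing the labels do not give, 220 genes and 0 enzymes were called between genotypes, and Srebf2 was -0.0092. With the mouse as a block, 4452 genes and 4 enzymes were called between cDNA amounts, with Sqle at 0.0012, and 3147 genes and 2 enzymes between sets. The block changed no other call of an enzyme. The causes of these changes were not tested. Depth limits Idi1 and Lss most, with 0 to 13 and 3 to 80 counts per library.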
